A study of Mus musculus with 12 samples.

Results

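High-density neutrophils (HDN) from the peripheral blood of mice with liver metastases were compared with neutrophils from the bone marrow of naive mice without tumours (Naive), across all genes. All mice were female Balb/c mice aged 8 weeks, with no transgene or treatment given in the labels. The comparison rests on 8 of the study's 12 RNA sequencing libraries, 4 HDN (replicates 3, 4, 5 and 7) and 4 Naive (replicates 1 to 4). The other 4 libraries held low-density neutrophils (LDN) from the blood of mice with metastases, and their levels are given only beside those of HDN. The fit used all 12 libraries, so LDN also entered the low-count filter, the scaling and the estimate of spread. By its title the study concerned breast cancer that spreads to the liver. Tissue (blood or marrow) and tumour status changed together between the groups, so their effects cannot be told apart. The sources used here do not give the tumour model, the purity of the cells or the number of animals behind each library. Nothing in the labels states that libraries are from different animals, and p-values therefore reflect only the spread between these samples. Of 23621 gene symbols in the count table, 15762 had reads and 10604 passed a filter on low counts and were tested.

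Neutrophils are short-lived phagocytes that form in the bone marrow. Their precursors divide and fill granules in a fixed order: primary (azurophil) granules in promyelocytes, secondary (specific) granules in myelocytes, gelatinase granules in later stages and secretory vesicles last. Division stops before the cells mature, and transcription of most granule genes stops with the stage that makes the granule. The chemokine receptor CXCR4 holds cells in the marrow, and CXCR2 draws them into the blood. Marrow therefore normally holds neutrophils of several stages and blood mainly mature ones.

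Total counts ranged from 18113922 to 27741885 in Naive and from 20049857 to 30044508 in HDN, and 3 reads, the floor of detection used here, were worth 0.0953 to 0.152 CPM over these libraries. CPM are counts relative to library size after TMM scaling, a correction for RNA composition, and are not divided by gene length. HDN 7 had a scaling factor of 1.28, against 1.01 to 1.05 in the other HDN libraries and 0.943 to 1.09 in Naive. HDN 3 and HDN 5 were closest to each other, with a chi-square per gene of 19.5 between their counts, and every other pair of HDN libraries stood at 98.5 or more. Among Naive libraries, Naive 3 and Naive 4 were closest, at 3.31, and the other pairs stood at 15.4 to 73. A tag that looks like a date stood in the column names of all 8 blood libraries and of no marrow library, and it cannot be told apart from the group. The 10 most abundant genes of each library took 24.0% to 25.9% of counts in Naive and 12.5% to 15.7% in HDN.

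Neutrophil genes were abundant in both groups. A list of 12 neutrophil defining genes took 15.67% to 17.09% of counts in Naive and 10.73% to 13.42% in HDN. All 11 with a row were tested, among them S100a8, S100a9, Csf3r, Cxcr2, Mmp8 and Retnlg. Of these 11, 4 were higher, 4 were lower and 3 did not pass. S100a8 and S100a9 held most of that share, with 5.50% and 7.23% of counts in Naive and 3.82% and 4.79% in HDN. Retnlg, a resistin-like gene of mouse neutrophils, stood at 7985 ± 1624 CPM in Naive and 6619 ± 1413 CPM in HDN (mean ± SD, n = 4, as for all means below). Markers of other cells took small shares. B cell markers took 0.00178% to 0.00550% of counts in Naive and at most 0.000285% in HDN, with 7 of 7 tested members lower. Platelet markers took 0.0118% to 0.0134% in Naive and 0.00110% to 0.00123% in HDN, with 5 of 6 tested lower. Most of that share in Naive was Itgb3, with 10437 reads in Naive and 366 in HDN. Itga2b rose instead, from 240 reads to 717 (log2 fold change 1.40). Of 7 tested T cell markers, 2 were lower and 1 higher, with a median log2 fold change of 0.28, and their summed share followed Cd3d. Monocyte and macrophage markers took 0.0713% to 0.0830% in Naive and 0.0525% to 0.0695% in HDN, with 7 of 13 lower and 3 higher. With a filter of at least 1 CPM in 4 libraries these became 3 lower and 3 higher of 9 and the median turned from -1.999 to 0.56, and of the 7 lower members all but Ly6c2 had few reads. The macrophage complement gene C1qa had 73 reads in Naive and 0 in HDN, at least 27.4-fold lower against a floor of 3 reads over the group. Of the eosinophil markers, Epx had 404 reads in Naive and 0 in HDN, at least 152-fold lower, while Siglecf was higher. Hepatocyte markers took at most 2.66e-05% of counts, with Alb at 0 reads, and the haemoglobin genes Hba-a1, Hba-a2, Hbb-bs and Hbb-bt were at 0 reads in all 8 libraries. In bulk RNA, fewer cells of a type and less RNA per cell cannot be told apart, and the part of these other cells in the results below was not tested.

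**Figure D1:**
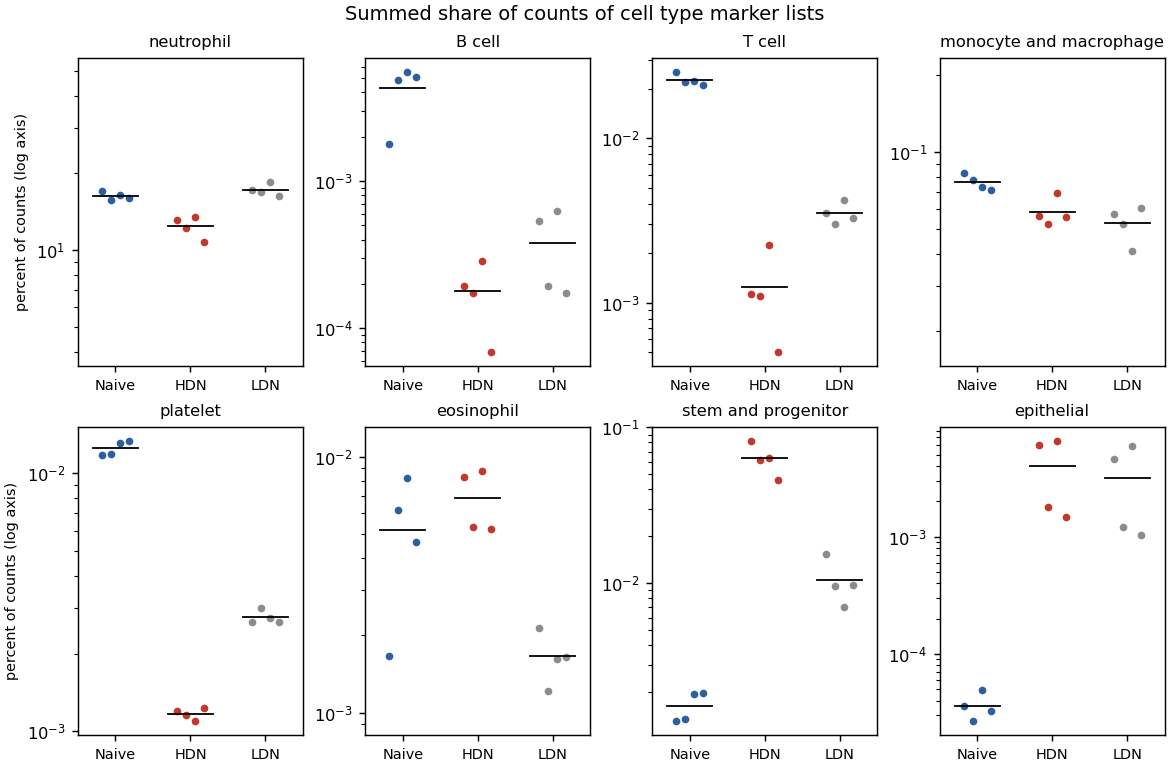
Share of all counts (percent, log axis) taken by each list of cell type markers in every library, as points, with the group mean as a line. Neutrophil markers took between 10.73% and 17.09% in each of the 8 HDN and Naive libraries. The shares of B cell, T cell (mostly Cd3d) and platelet (in Naive mostly Itgb3) markers were lower in all 4 HDN libraries than in any Naive library. That of the stem and progenitor list, through Kit, was higher.

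At an adjusted p under 0.05 (edgeR's quasi-likelihood test, Benjamini-Hochberg over all genes tested), 6344 genes differed. HDN was higher for 3177 genes, or 30.0% of those tested, and lower for 3167, or 29.9%. A stricter test, for a difference of more than 2-fold, called 1054 genes higher (9.94%) and 1549 lower (14.6%). These 4 percentages are the background against which the counts of each gene group below are to be read. Past a log2 fold change of 3 the fall was the commoner direction, with 686 genes lower and 378 higher. All HDN libraries lay above all Naive libraries for 2701 of the 10604 genes tested, and below them for 2952. The median log2 fold change over all genes was 0.04. Library sizes that leave out the 20 most abundant genes moved that median by -0.15 and turned the balance to 2488 higher and 3676 lower. The authors' deposited table of this comparison had an adjusted p under 0.05 for 7168 of 13340 genes, with 3500 higher and 3668 lower.

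**Figure D2:**
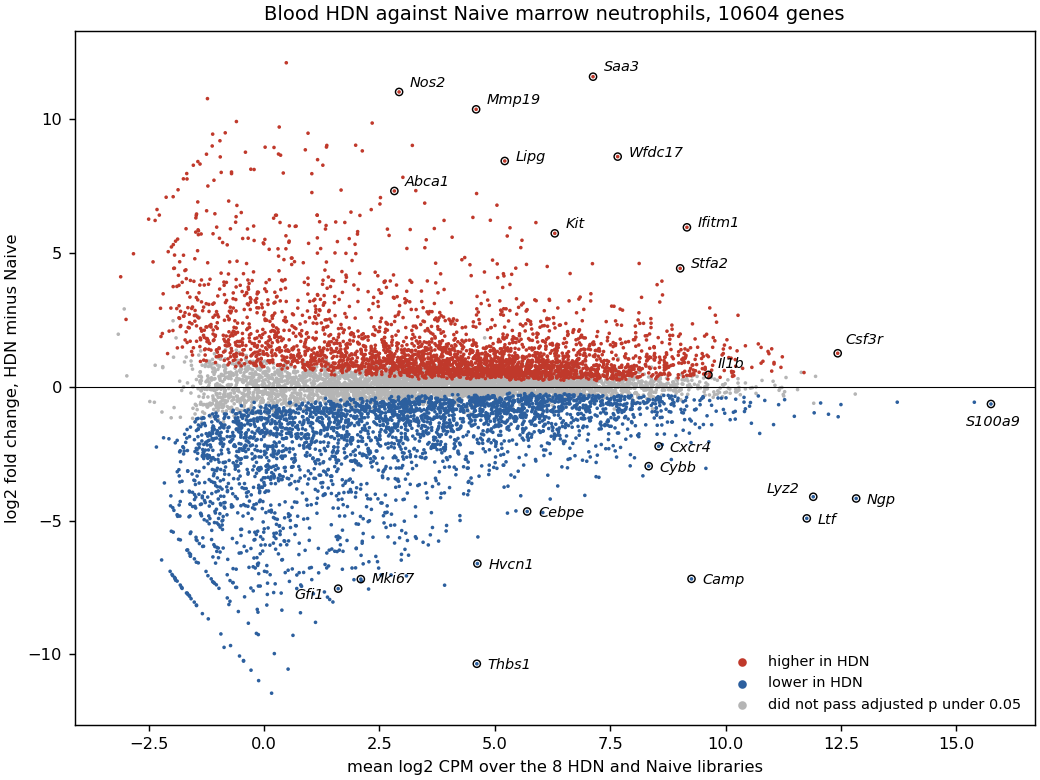
Each point is 1 of 10604 tested genes, with its mean log2 CPM over the HDN and Naive libraries on the x axis and its log2 fold change (HDN minus Naive) on the y axis; red and blue mark genes that passed at an adjusted p under 0.05. Saa3, Mmp19 and Nos2 stand at the top, Thbs1 and Camp at the bottom, and the abundant granule transcripts Ltf, Ngp and Lyz2 lie far below 0 at the right.

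Among abundant genes the largest increase was that of Saa3, a serum amyloid gene of the acute phase. It stood at 2.48, 2.40, 3.56 and 2.12 CPM in Naive 1 to 4 and at 5148, 13970, 4439 and 9029 CPM in HDN 3, 4, 5 and 7. The groups were far apart, and HDN 4 and HDN 7 were the highest (log2 fold change 11.59 ± 0.80 SE, adjusted p = 3.61e-08). Mmp19, a matrix metalloproteinase gene, was at 0.38 to 1.12 CPM in Naive and at 579, 1360, 548 and 1021 CPM in the HDN libraries, again with HDN 4 and HDN 7 highest (10.37 ± 0.53). Wfdc17, which encodes a small secreted protein with a protease-inhibitor fold, was at 7.22 to 13.49 CPM in Naive and at 4386, 4833, 5149 and 2221 CPM in HDN (8.60 ± 0.33). Lipg, the gene of endothelial lipase, was at 1.22 to 2.57 CPM in Naive and 492 to 1031 CPM in HDN (8.44 ± 0.31). LDN stood beside HDN for Wfdc17, at 3628 ± 181 CPM (HDN minus LDN 0.19, adjusted p = 0.530), above it for Lipg, at 1215 ± 78.8 CPM (-0.79, adjusted p = 0.00895), and below it for Saa3, at 1915 ± 1458 CPM (2.09, adjusted p = 0.00557).

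The other 8 genes that led the increases where the mean log2 CPM reached 4 were Fam20c, Galnt6, Tlr1, Lrp1, Zfp36l1, Ifitm1, Prnp and Kit, with log2 fold changes from 7.22 down to 5.74. Fam20c encodes a kinase of secreted proteins, Galnt6 an enzyme that starts O-glycans, Lrp1 an endocytic receptor and Zfp36l1 an RNA-binding protein that promotes mRNA decay. Prnp, the prion protein gene, varied most among these, from 121 CPM in HDN 5 and 151 CPM in HDN 3 to 479 CPM in HDN 7 and 680.5 CPM in HDN 4, against 4.80 to 7.47 CPM in Naive. HDN 3 and HDN 5 thus lay together on the low side for Prnp as for Saa3 and Mmp19. Kit, the receptor for stem cell factor on progenitors and mast cells, was at 8.45 to 13.62 CPM in Naive and 356 to 796 CPM in HDN (5.74 ± 0.32), and at 112 ± 36.5 CPM in LDN (HDN minus LDN 2.39, adjusted p = 1.58e-05). Of the 4 tested genes of the stem and progenitor list, Kit among them, 2 were higher, 1 was lower and 1 did not pass, with a median of 2.81. The progenitor gene Hlf was the one that fell (-3.94), and Flt3, below the filter, had 27 reads in Naive and 12 in HDN.

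At the other end, Thbs1 and Camp led the decreases. Thbs1, which encodes the matricellular protein thrombospondin-1, was at 831, 1051, 713 and 808 CPM in Naive and at 0.48, 0.76, 0.76 and 0.53 CPM in HDN, so that 68 reads were left over 4 libraries (-10.35 ± 0.35, adjusted p = 1.41e-10). Hvcn1, the voltage-gated proton channel that balances charge during the oxidative burst, fell from 228 to 264 CPM in Naive to 1.33 to 3.11 CPM in HDN (-6.61 ± 0.24). Other leading decreases were Tinagl1 (-5.61), Itgb3 (-5.00), Mlst8 (-4.82), Cd3d (-4.72), Ly6c2 (-4.70), Ly6c1 (-4.64) and Sept5 (-4.19). Mlst8 encodes a subunit of the mTOR complexes, and Itgb3 the beta-3 integrin subunit, which is also abundant in platelets. The platelet genes Pf4 and Ppbp fell as well, from 61 and 50 reads in Naive to 2 and 3 in HDN, with 95% counting intervals for the fold of 9.12 to 290.4 and of 6.07 to 94.2. The platelet marker Itga2b went the other way (1.40). Cd3d is a T cell receptor subunit gene, and its 20067 reads in Naive stood beside 8 reads of Cd3e, another subunit gene of the same complex, against 839 and 58 reads in HDN. LDN was between the groups for all of these leading genes, for example at 4.98 ± 1.91 CPM for Thbs1 and 19.4 ± 3.03 CPM for Hvcn1, and HDN was lower than LDN for both (adjusted p = 8.11e-06 and 5.62e-07).

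**Figure D3:**
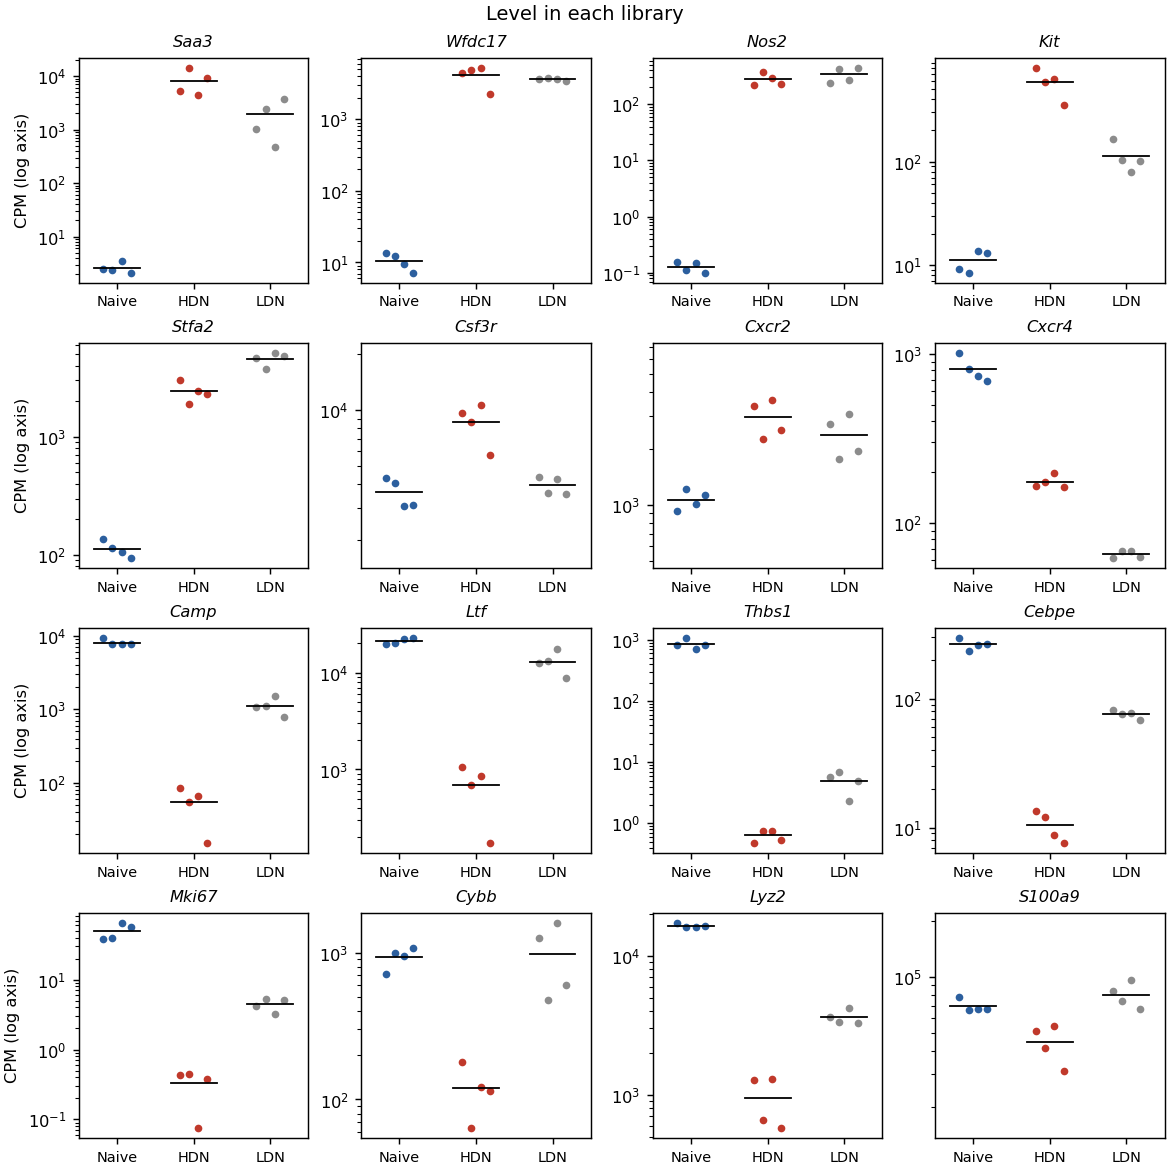
CPM (log axis) of 16 genes in each Naive, HDN and LDN library, as points, with the group mean as a line. Saa3, Wfdc17, Nos2, Kit, Stfa2, Csf3r and Cxcr2 were higher in all 4 HDN libraries than in any Naive library, the other 9 genes were lower, and HDN 7 was the lowest HDN library for Camp, Ltf, Lyz2 and S100a9. For Saa3, Wfdc17, Kit, Camp, Ltf, Thbs1 and Cebpe this separation was a condition of the ranking that named them. Of all 10604 genes tested, 2701 were higher in this way and 2952 lower.

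The abundant transcripts showed where the counts of each group went. Naive libraries spent 3.315% of counts on Ngp, 2.19% on Ltf, 1.70% on Lyz2 and 0.835% on Camp, and HDN 0.188%, 0.0726%, 0.101% and 0.00582%. S100a8 and S100a9, the subunits of calprotectin, stayed the leading transcripts of both groups but were lower in HDN, at 35710 ± 8505 and 44690 ± 10430 CPM against 53240 ± 7531 and 69750 ± 5600 CPM (-0.58 and -0.64, adjusted p = 0.0190 and 0.00937). In the other direction HDN spent 0.9% of counts on Saa3, 0.926% on Csf3r, 0.494% on Ifitm1 and 0.340% on Adgre5, which encodes the adhesion receptor CD97. Zyx, an actin-associated adaptor gene (1.42), and Alox5ap, whose protein helps 5-lipoxygenase make leukotrienes (1.60), were also among the genes that gained most in share. The most abundant genes whose 95% confidence interval lay within 0.5 of 0 were Itgam (-0.10), Tln1 (-0.18), Gnai2 (-0.02), Mxd1 (-0.05), Pygl (0.06) and Ccl6 (-0.00), which include the alpha subunit of the integrin Mac-1 and the liver-type glycogen phosphorylase. In all, 1138 genes had such an interval.

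Of 13 tested secondary granule genes, 11 were lower and 1 higher, 7 of them lower by more than 2-fold, with a median log2 fold change of -2.09. Their summed share of counts was 9.526%, 10.05%, 10.83% and 11.1% in Naive 1 to 4 and 1.998%, 2.364%, 1.849% and 2.028% in HDN 3, 4, 5 and 7, without overlap. Fcnb, the gene of the lectin ficolin-B, fell most (-7.41 ± 0.35). Camp, the cathelicidin gene, was at 9216, 7633, 7630 and 7763 CPM in Naive and at 86.3, 54.5, 66.6 and 15.3 CPM in HDN (-7.18 ± 0.48). Ltf, the gene of the iron-binding lactoferrin, was at 19470 to 22490 CPM in Naive and 176 to 1065 CPM in HDN (-4.92 ± 0.45). HDN 7 was the lowest HDN library for both. Ngp (-4.17), Lyz2, the macrophage-type lysozyme gene (-4.11), and Orm1, an orosomucoid gene (-3.29), were further members that fell. Chil3, a chitinase-like gene, was at 1198 to 2204 CPM in Naive and at 93.8, 600.1, 53.7 and 850.5 CPM in HDN 3, 4, 5 and 7, with HDN 3 and HDN 5 together on the low side (-2.08 ± 0.69), and did not pass when no filter on low counts was used (adjusted p = 0.0601). Hp, haptoglobin, was the member that rose (0.53), with groups that overlapped, and its adjusted p was 0.0537 to 0.0553 without Naive 3, Naive 4 or HDN 4. Mmp8, neutrophil collagenase, stood at 2725 ± 528 CPM in Naive and 3961 ± 1315 CPM in HDN (0.54, adjusted p = 0.0519). It passed with DESeq2 (adjusted p = 0.0355), with no filter on low counts (0.0492), without HDN 5 (0.00604) and without Naive 4 (0.0483).

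Primary granule genes were mixed. Elane and Mpo, for neutrophil elastase and myeloperoxidase, were already at low levels in marrow and fell from 22.9 ± 3.62 and 68.2 ± 7.23 CPM to 0.329 ± 0.230 and 0.994 ± 0.403 CPM (-6.14 and -6.07). Serpinb1a, which inhibits granule serine proteases (-2.31), and Cd63, a granule membrane protein gene (-1.64), were also lower, and in all 7 of 11 members fell. The members that rose were Ctsc and Srgn. Ctsc, which encodes the protease that activates the granule serine proteases, rose from 8.63 to 10.33 CPM in Naive to 121.5, 57.0, 97.5 and 83.3 CPM in HDN (3.24 ± 0.24), and Srgn, the proteoglycan that packs granule contents, rose from 574 ± 131 to 1943 ± 227 CPM (1.76 ± 0.16). Of 11 gelatinase granule and secretory vesicle genes, 5 fell and 2 rose. Mmp9, gelatinase B, was at 6155 to 8757 CPM in Naive and 2071 to 4375 CPM in HDN (-1.02 ± 0.21), the pantetheinase gene Vnn3 fell (-4.71), and Cd14, a co-receptor for lipopolysaccharide held in secretory vesicles, rose from 105 to 153 CPM to 531 to 707 CPM (2.27 ± 0.15). With library sizes that leave out the 20 most abundant genes, 8 of the 11 fell.

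**Figure D4:**
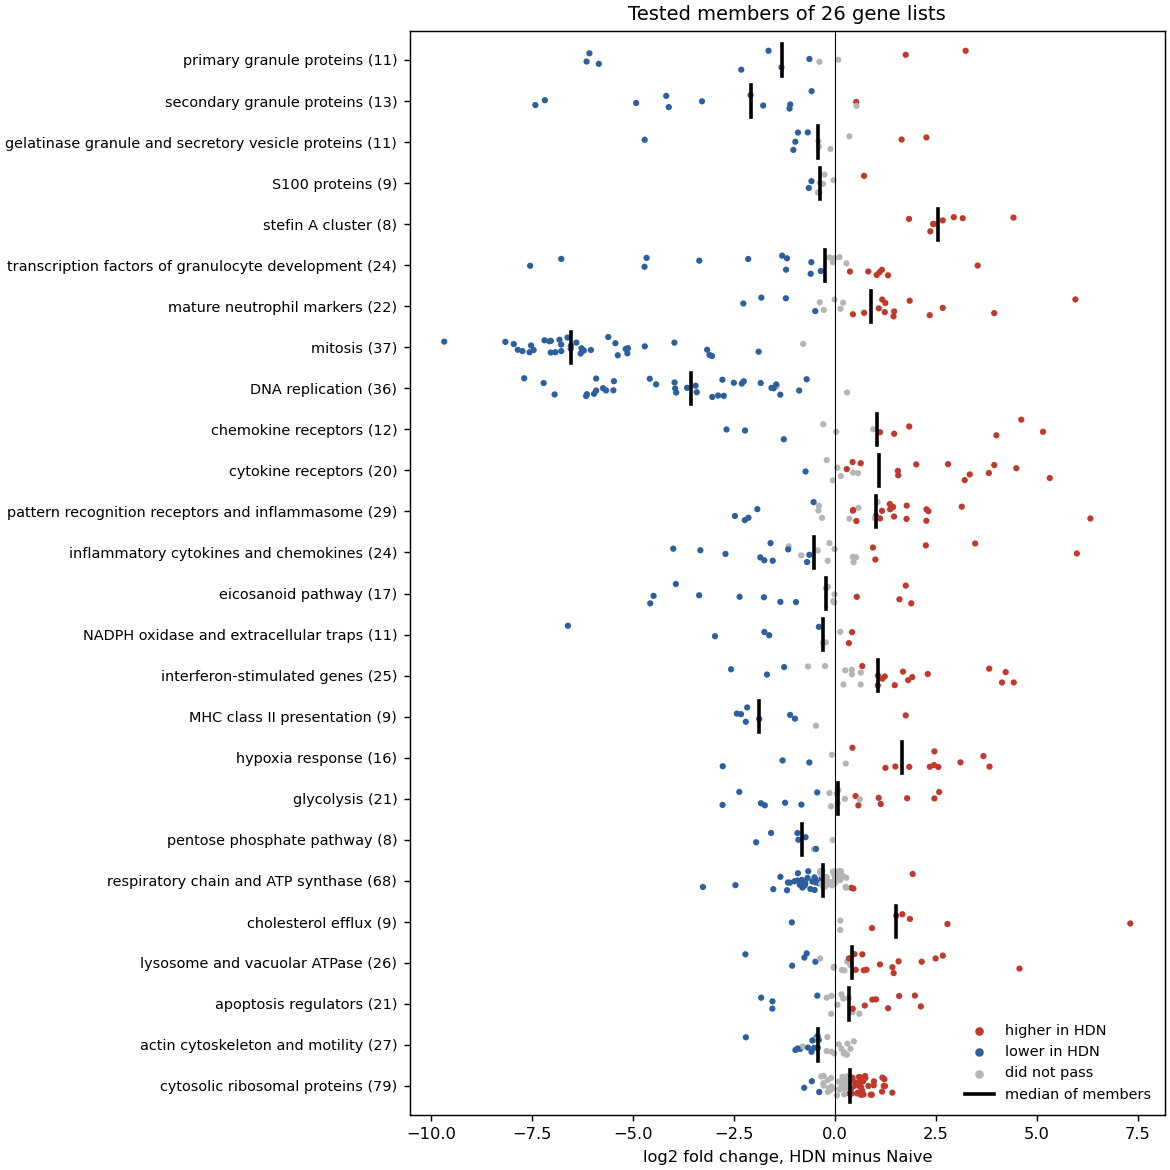
Log2 fold change (HDN minus Naive) of each tested member of 26 gene lists, with the number tested in brackets; red and blue mark members that passed at an adjusted p under 0.05 and the black bar is the list's median. Mitosis and DNA replication genes lie to the left at medians of -6.54 and -3.55, secondary granule genes at -2.09, and stefin A genes to the right at 2.56.

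Of 24 transcription factors of granulocyte development tested, 12 were lower, 7 were higher and 5 did not pass, with a median of -0.24. Gfi1, a repressor needed for granulocytes, stood at 32.8 to 39.4 CPM in Naive and at 0.19, 0.32, 0.08 and 0.15 CPM in HDN (-7.54 ± 0.38), with 20 reads left in HDN and a counting interval of 122 to 308-fold. Myb, a factor of dividing progenitors (-6.77), Cebpe, which activates secondary granule genes (-4.66 ± 0.18), and Cebpa, which commits progenitors to the myeloid line (-2.14), fell in every HDN library below every Naive library. For Cebpe that separation was a condition of the ranking of leading decreases. Of all 10604 genes tested, 2952 were separated in the same direction. Cebpe was at 235 to 294 CPM in Naive and 7.63 to 13.37 CPM in HDN, with LDN at 75.8 ± 6.02 CPM between them. Rfx2 (3.54), Id2 (1.32) and Rara, the retinoic acid receptor alpha gene (1.11), rose, and Cebpb, the C/EBP factor of emergency granulopoiesis, rose by 0.83 with groups that overlapped. Spi1, which encodes the myeloid master factor PU.1, was at 797.5 ± 161 CPM in Naive and 975 ± 196 CPM in HDN (0.29, adjusted p = 0.153), and passed without HDN 7 (0.43, adjusted p = 0.0155) or Naive 1 (0.43, adjusted p = 0.0278) and with no scaling factor (0.35, adjusted p = 0.0149).

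Markers of mature neutrophils were mostly higher, with 13 of 22 up, 7 of them by more than 2-fold, and 4 down. Ifitm1, an interferon-induced membrane protein gene, rose from 60.9 to 88.1 CPM to 5375, 4846, 5616 and 2697 CPM (5.96 ± 0.25), and Ifitm2 rose by 2.35. Il1r2, the decoy receptor for interleukin-1, was at 89.2 to 120 CPM in Naive and at 1037, 2570, 930 and 1954 CPM in HDN (3.95 ± 0.37). Cd101, which marks mature mouse neutrophils at the surface, went against the list, at 277 to 396 CPM in Naive and 67.9 to 241 CPM in HDN (-1.21 ± 0.30), and stood at 23.8 ± 3.12 CPM in LDN (HDN minus LDN 2.55, adjusted p = 2.94e-05). Trem3 (-2.26) and Btg2 (-1.82) fell as well. The share of counts of the list was 2.51% to 3.23% in Naive and 4.47% to 5.30% in HDN.

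All 8 tested genes of the stefin A cluster, which encode inhibitors of cysteine cathepsins, rose by more than 2-fold, with a median of 2.56. Their share was 0.132% to 0.160% of counts in Naive and 1.31%, 0.873%, 1.05% and 1.19% in HDN 3, 4, 5 and 7. Stfa2 rose from 95.04 to 137 CPM to 1912 to 3049 CPM (4.43 ± 0.19). The members are near-identical copies, so how reads divide between them is uncertain. Among cathepsin genes themselves, Ctss rose from 9.24 to 12.73 CPM to 269, 432, 139 and 209 CPM (4.58 ± 0.33), and Ctsl (2.68), Ctsa (2.50) and Ctsb (2.15) rose as well. Of 26 lysosome and vacuolar ATPase genes, 14 were higher and 5 lower, with Ctsh at -2.21.

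Genes of cell division were lower in HDN. Of 37 mitosis genes tested, 36 were lower by more than 2-fold and 0 higher, with a median of -6.54. The list took 0.0925%, 0.110%, 0.152% and 0.158% of counts in Naive 1 to 4 and 0.00400% to 0.00631% in HDN. Cdk1, the kinase that starts mitosis, was at 54.4, 52.3, 72.9 and 68.2 CPM in Naive and at 0.44, 0.51, 0.19 and 0.15 CPM in HDN (-7.56 ± 0.39). Mki67, the proliferation marker, was at 38.7, 39.0, 63.7 and 56.4 CPM in Naive and had 35 reads over the HDN libraries, a fall of 103 to 206-fold by its counting interval (-7.19 ± 0.36). Naive 3 and Naive 4 were above Naive 1 and Naive 2 for both. Ttk, a spindle checkpoint kinase gene, had 391 reads in Naive and 0 in HDN, at least 147-fold lower. Kif23, a kinesin gene of cytokinesis, was the member that did not pass, at 29.6 ± 4.79 CPM in Naive and 17.2 ± 7.57 CPM in HDN (-0.78, adjusted p = 0.0777). LDN was between the groups for Mki67, at 4.45 ± 0.895 CPM (HDN minus LDN -3.72, adjusted p = 3.54e-06).

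Of 36 DNA replication genes, 34 were lower and 0 higher, 28 by more than 2-fold, with a median of -3.55. Uhrf1, which carries DNA methylation through replication (-7.21), and the helicase subunit Mcm6 fell furthest among those whose mean log2 CPM reached 1. Mcm6 was at 12.99, 20.6, 31.6 and 29.4 CPM in Naive and at 0.44, 0.38, 0.30 and 0.19 CPM in HDN (-6.16 ± 0.42). Mcm4, another subunit of the same helicase, was at 18.3 ± 5.41 CPM in Naive and 22.6 ± 1.62 CPM in HDN (0.31, adjusted p = 0.231). Among regulators of the cycle, the inhibitor gene Cdkn1a rose from 7.88 ± 1.46 to 44.1 ± 16.6 CPM (2.48), while Cdk4 (-2.52) and the inhibitor Cdkn2c (-3.69) fell. The maintenance methyltransferase Dnmt1 fell (-2.83) and Tet2, which oxidises methylated cytosine, rose (1.74). Of 11 genes of the nuclear lamina and of the LINC complex, which ties it to the cytoskeleton, 6 fell and 2 rose, from -5.25 to 4.64. The nuclear lamina gene Lmnb2 fell most (-5.25), while Lmnb1 (0.28) did not pass, except without HDN 7 (0.46, adjusted p = 0.0106).

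Short sequences were searched in the promoters of these division genes. Genes of mitosis are commonly repressed in resting cells through CHR elements (TTTGAA), and S-phase genes through E2F sites. Promoters of mitosis genes often hold CCAAT boxes as well. The 150 bases before the transcription start are shown for the 3 mitosis genes with the largest falls that hold both CHR and CCAAT letters there, and for the 2 replication genes with the largest falls that hold an E2F match, read in the direction of transcription from RefSeq on GRCm38.p6. In the first 3, capitals mark CHR and CCAAT letters on either strand, so that a CHR match can also read TTCAAA and a CCAAT match ATTGG. In the last 2, capitals mark E2F letters (TTTCCCGC, TTTGGCGC or TTTCGCGC) on either strand. The stretches lie at chr10:69352913-69353062 (minus strand, Cdk1), chr7:135716380-135716529 (minus strand, Mki67), chr2:164769779-164769928 (plus strand, Ube2c), chr1:128359706-128359855 (minus strand, Mcm6) and chrX:93632156-93632305 (minus strand, Pola1).
Cdk1: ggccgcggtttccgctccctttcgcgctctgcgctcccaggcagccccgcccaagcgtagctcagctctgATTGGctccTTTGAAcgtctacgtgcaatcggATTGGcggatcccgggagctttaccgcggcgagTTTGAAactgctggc
Mki67: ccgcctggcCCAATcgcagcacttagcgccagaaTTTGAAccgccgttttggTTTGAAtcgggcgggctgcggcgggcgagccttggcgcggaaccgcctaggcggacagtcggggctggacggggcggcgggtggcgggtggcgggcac
Ube2c: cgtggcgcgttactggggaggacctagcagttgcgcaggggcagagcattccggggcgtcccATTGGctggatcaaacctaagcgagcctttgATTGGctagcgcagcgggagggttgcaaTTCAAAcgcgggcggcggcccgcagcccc
Mcm6: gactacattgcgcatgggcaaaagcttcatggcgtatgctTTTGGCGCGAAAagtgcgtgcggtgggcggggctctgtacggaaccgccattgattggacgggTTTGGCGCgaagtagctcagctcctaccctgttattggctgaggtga
Pola1: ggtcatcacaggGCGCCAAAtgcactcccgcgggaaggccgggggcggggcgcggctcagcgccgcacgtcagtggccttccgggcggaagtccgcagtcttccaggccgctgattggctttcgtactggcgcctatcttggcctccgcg

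In Cdk1 a CHR match began 71 bases and another 15 bases before the start, each with an ATTGG match upstream, beginning at 80 and 48 bases. Ube2c, which encodes a ubiquitin-conjugating enzyme of mitotic exit, fell from 83.6 to 108 CPM to 0.42 to 0.97 CPM (-7.07 ± 0.35). Pola1, the catalytic subunit of DNA polymerase alpha, had 139 reads in Naive and 2 in HDN, a 78.4-fold fall with a counting interval of 21.3 to 654. Over windows from 250 bases before to 50 bases after the start, on both strands, CHR letters were in 76.5% of 34 promoters of mitosis genes, against 17.6% of all 32619 promoters in the table and 12% of those of tested genes. CCAAT letters were in 79.4% against 37.6% of all promoters, and in 37.5% of those of tested genes. In the replication list, E2F letters were in 13 of 35 promoters (37.1%), against 1.86% of all promoters and 3.61% of those of tested genes, so that 22 held none. CCAAT letters were in 62.9% and CHR letters in 5.71% of the promoters of that list. A match describes the letters only.

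Cytokine receptor genes were mostly higher. Of 20 tested, 13 were higher and 1 lower, 10 of them higher by more than 2-fold, and 12 were higher and 3 lower with library sizes that leave out the 20 most abundant genes. Il6st, the gp130 chain shared by receptors of the interleukin-6 family, was at 0.11, 0.59, 1.27 and 0.66 CPM in Naive and at 27.8, 19.5, 28.1 and 27.1 CPM in HDN (5.33 ± 0.39). Il13ra1 (4.50) and Il4ra (3.82), which together form a receptor for interleukins 4 and 13, rose to 348 ± 119 and 1406 ± 350 CPM from 15.4 ± 4.30 and 99.7 ± 22.1 CPM. LDN was near HDN for Il4ra, at 1206 ± 116 CPM (HDN minus LDN 0.22, adjusted p = 0.366). Csf3r, the G-CSF receptor, was at 4309, 4045, 3061 and 3108 CPM in Naive and at 9645, 8634, 10630 and 5716 CPM in HDN (1.25 ± 0.19, adjusted p = 7.56e-05), and Csf2rb2, a receptor chain of the same broad family, rose by 3.35. Csf1r, which encodes the M-CSF receptor, did not pass (0.20, adjusted p = 0.402). For Csf3r, LDN stood at 3961 ± 446 CPM, below HDN (HDN minus LDN 1.13, adjusted p = 0.000392).

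Among chemokine receptors, 6 of 12 were higher and 3 lower. Cxcr2 was at 923, 1208, 1004 and 1121 CPM in Naive and at 3376, 2261, 3650 and 2516 CPM in HDN (1.47 ± 0.20), and Cxcr1, a second receptor for the same kind of chemokine, rose from 1.63 to 3.73 CPM to 37.4 to 86.5 CPM (4.62 ± 0.30). Cxcr4, the marrow retention receptor, was at 1008, 816.5, 740 and 694 CPM in Naive and at 165, 174, 197 and 163 CPM in HDN (-2.22 ± 0.13, adjusted p = 8.66e-09), so that the groups lay apart in opposite directions for the pair. LDN was lower still for Cxcr4, at 65.5 ± 3.44 CPM (HDN minus LDN 1.42, adjusted p = 2.65e-06). Of adhesion genes, 12 of 25 rose and 10 fell. The integrin subunits Itga5 (4.20) and Itga4 (2.45) rose, and Itga6 (-4.16), Itgb2l (-4.07) and Itgb2 (-0.67), the common chain of the leukocyte integrins, fell.

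Receptors for microbes rose more often than they fell, with 17 of 29 up and 5 down, or 8 down with library sizes that leave out the 20 most abundant genes. Tlr1, which pairs with TLR2 to sense lipopeptides, rose from 1.796 to 3.14 CPM to 271, 131, 266 and 173 CPM (6.33 ± 0.36), whereas Tlr2 itself was at 0.36 and did not pass, although it did without HDN 7 (0.52, adjusted p = 0.0425). Casp4, the sensor of intracellular lipopolysaccharide (3.15), Tlr13 (2.32) and Tlr7 (2.27) rose, and Tlr5, the flagellin receptor, fell (-2.47). Tlr7 was higher in HDN 7, at 63.5 CPM, than in the other HDN libraries, at 7.50 to 15.6 CPM. Of the Fc and complement receptors, 3 of 11 rose and 2 fell (5 and 1 without HDN 7, and 3 and 5 with library sizes that leave out the 20 most abundant genes), with Fcgr4, an activating IgG receptor, at 1.76 and Cd55, which protects cells from complement, at -3.03. Siglecf, an inhibitory lectin also found on eosinophils, rose from 8.90 to 11.18 CPM to 39.5 to 83.9 CPM (2.69), and Siglecg (-5.58) and Clec12a (-2.83) fell.

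Effector genes divided. Nos2, the inducible nitric oxide synthase, had 12 reads in the 4 Naive libraries and was at 219, 378, 288 and 231 CPM in HDN, a ratio of 2219 with a counting interval of 1270 to 4295, and at 343 ± 102 CPM in LDN (HDN minus LDN -0.30, adjusted p = 0.264). Arg2, a mitochondrial arginase gene, rose by 0.66 with groups that overlapped, and the arginine transporter gene Slc7a1 fell (-2.79). Of 24 inflammatory cytokine and chemokine genes, 10 were lower and 5 higher. Tnf was at 48.6 to 61.4 CPM in Naive and 5.82 to 11.49 CPM in HDN (-2.71 ± 0.22), and Osm, the gene of oncostatin M, fell from 976 ± 422 to 97.2 ± 15.9 CPM (-3.33). Csf1, the macrophage growth factor, rose from 34.7 to 47.6 CPM to 320.3 to 529 CPM (3.48 ± 0.17). Il1b was at 668, 945, 583 and 622 CPM in Naive and at 1099, 603, 1423 and 714 CPM in HDN, overlapping ranges in which HDN 3 and HDN 5 were the highest (0.45 ± 0.33, adjusted p = 0.258). LDN was below HDN for Il1b, at 174 ± 80.2 CPM (2.46, adjusted p = 8.74e-05). Cxcl2, a chemokine gene that draws neutrophils, was at 269 ± 103 CPM in Naive and 152 ± 53.2 CPM in HDN (-0.83, adjusted p = 0.142).

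Most genes of the oxidase and of extracellular traps that passed were lower, with 5 of 11 down and 2 up, or 8 down with library sizes that leave out the 20 most abundant genes. Cybb, the catalytic subunit of the NADPH oxidase, was at 713, 994, 957 and 1084 CPM in Naive and at 181, 64.2, 121 and 113 CPM in HDN (-2.96 ± 0.39). Ncf1, the p47-phox subunit (-1.74), and Padi4, which citrullinates histones (-1.62), fell. For Cybb, LDN stood at 983 ± 528 CPM, above HDN (HDN minus LDN -3.03, adjusted p = 3.98e-05). In the eicosanoid pathway 8 of 17 genes fell and 4 rose. Lta4h, which makes leukotriene B4, fell from 474 ± 52.0 to 46.2 ± 9.23 CPM (-3.36), the cyclooxygenase gene Ptgs2 fell (-4.49) and Alox5 fell (-0.96), against the rise of Alox5ap. Among matrix proteases, Plau, the urokinase gene, fell from 62.6 to 75.5 CPM to 0.69 to 0.92 CPM (-6.48 ± 0.22), the opposite of Mmp19. Of the acute-phase and secreted proteins, 9 of 21 rose and 9 fell, with Prok2, the chemokine-like prokineticin-2, at 4.60 and Lrg1 at 1.72. Saa1, a paralogue of Saa3, had 2 reads in Naive and 2603 in HDN, and its counts could be shared with other Saa copies.

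Signalling genes of interferon and JAK-STAT rose more often than they fell. Of 25 interferon-stimulated genes, 14 were higher and 3 lower, led by Oasl2 (4.43), the guanylate-binding protein Gbp2 (4.23), Ifi47 (4.14) and Zbp1 (3.83). The HDN libraries differed among themselves, with Ifi47 at 227, 322, 46.0 and 102 CPM in HDN 3, 4, 5 and 7 against 8.49 to 10.95 CPM in Naive. HDN 4 was the highest and HDN 5 the lowest for Ifi47 and for Zbp1. Rsad2 (-1.68) and Cmpk2 (-2.57), neighbouring antiviral genes, fell. Nlrc5, which activates class I antigen presentation genes, rose by 4.56, and 9 of 13 genes of that pathway were higher and 0 lower, while 7 of 9 class II genes fell, among them H2-DMb2 (-2.42). Of 17 JAK-STAT genes, 9 rose and 2 fell, with Jak3 (2.72), Socs3, a feedback inhibitor induced by STAT3 (2.38), and Stat3 (1.18) higher. In the NF-kappaB pathway 10 of 17 rose, including the inhibitor Nfkbia (1.44), and 3 fell, including Nfkbie (-2.61), or 7 and 5 with library sizes that leave out the 20 most abundant genes. Of 22 immediate-early genes, 7 were higher and 8 lower, not far from the 30.0% and 29.9% of all genes tested. Jun rose from 86.5 ± 38.1 to 630.1 ± 249 CPM (2.86), Fos fell from 1850 ± 698 to 801 ± 91.4 CPM (-1.21), and Junb stood at 1304 ± 488 and 1195 ± 188 CPM (-0.13, adjusted p = 0.669). Without Naive 1 the adjusted p of Fos was 0.0699. For these 3 genes Naive 1 and Naive 2 lay above Naive 3 and Naive 4.

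Of 16 hypoxia response genes, 11 rose and 3 fell. Hif1a, the oxygen-regulated subunit of HIF-1, was at 20.2 to 29.1 CPM in Naive and at 136, 56.1, 154 and 133 CPM in HDN (2.36 ± 0.37). Pdk1, which keeps pyruvate out of mitochondria (3.68), the collagen hydroxylase gene P4ha1 (3.12), Ankrd37 (3.83) and Hilpda (2.57) rose. Ndrg1 fell from 156 ± 25.6 to 22.8 ± 3.03 CPM (-2.77). LDN was below HDN for Pdk1 and P4ha1 (HDN minus LDN 2.05 and 1.09, adjusted p = 1.38e-05 and 0.000212).

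Of 21 glycolysis genes, 7 were higher and 7 lower, near the 30.0% and 29.9% of all genes tested. Slc2a1, the glucose transporter GLUT1, rose from 70.7, 57.7, 39.0 and 40.3 CPM in Naive to 297, 290, 365 and 199 CPM in HDN (2.47 ± 0.22), the phosphofructokinase gene Pfkl rose (1.79), and the hexokinases Hk2 (-2.36) and Hk3 (-1.73), the lactate dehydrogenase subunit Ldhb (-2.78) and the lactate transporter Slc16a1 (-1.83) fell. Of 8 pentose phosphate genes, 6 fell and 0 rose, with H6pd (-1.95), Rpia (-1.58) and the transketolase gene Tkt (-0.92). G6pdx, the first enzyme of that pathway, was at 983 ± 67.4 CPM in Naive and 951.5 ± 301 CPM in HDN (-0.05, adjusted p = 0.861). Of 68 nuclear-encoded genes of the respiratory chain and ATP synthase, 28 were lower and 3 higher, with a median of -0.30, and the 3 became 1 without Naive 2 or without Naive 4. Library sizes that leave out the 20 most abundant genes gave 39 lower and 1 higher, with a median of -0.45. TCA cycle genes were higher for 7 of 25, including Sdha (0.94), and lower for 9, including Fh1 (-1.86) and Idh2 (-1.52), and the 7 higher became 1 with library sizes that leave out the 20 most abundant genes, 2 without Naive 2 and 3 without HDN 4.

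Lipid genes also differed. Beside Lipg, Soat2, which esterifies cholesterol, rose from 2.07 to 3.10 CPM to 105.5 to 130.2 CPM (5.59 ± 0.17), and Fabp5 (2.77) and the lipid droplet gene Plin2 (2.08) rose. The lipase genes Mgll (-3.75) and Lpl went the other way, Lpl with 832 reads in Naive and 1 in HDN (counting interval 168 to 37098-fold). Of 9 cholesterol efflux genes, 6 rose and 1 fell. Abca1, the sterol exporter that loads apolipoproteins, was at 0.37 to 0.81 CPM in Naive and at 103, 44.7, 91.9 and 106 CPM in HDN (7.32 ± 0.45), and Scarb1 (2.79), Apoe (1.86) and Abcg1 (1.52) rose. LDN stood below HDN for Abca1, at 19.4 ± 8.81 CPM, and for Abcg1, at 38.8 ± 10.5 CPM (HDN minus LDN 2.16 and 2.56, adjusted p = 0.000167 and 2.67e-06). Of 22 genes of cholesterol synthesis and uptake, 10 fell and 4 rose, with Hsd17b7 (-4.01), Msmo1 (-1.50) and Mvk (-1.38) among those that fell and Sc5d (1.34) the furthest up.

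Of 79 cytosolic ribosomal protein genes, 39 were higher and 3 lower (1 lower without Naive 3, HDN 3 or HDN 5, and 8 with library sizes that leave out the 20 most abundant genes), and their share was 0.330% to 0.3695% of counts in Naive and 0.530% to 0.709% in HDN. Rplp0 was the member furthest up (1.43), at 95.1 ± 8.31 and 255 ± 77.0 CPM. Many processed copies of these genes exist, so their counts are uncertain. Mitochondrial ribosomal protein genes differed in direction, with 27 of 67 lower and 11 higher, or 32 and 7 under that scaling. Among regulators of cell death, 8 of 21 rose and 4 fell. Mcl1, a survival protein that neutrophils depend on, was at 1060 to 1468 CPM in Naive and 2294 to 3969 CPM in HDN (1.32 ± 0.17), and Bcl2l1, which encodes BCL-XL, rose by 1.59, as did the death-promoting Bcl2l11, the gene of BIM (1.98). Bcl2a1b fell (-1.54), with reads that its near-identical copies may share. Of 27 actin and motility genes, 13 fell and 0 rose, with Capg at -2.20 and Actb at -0.57 (adjusted p = 0.0619 without Naive 1). That call moved with scaling and with single libraries: 5 genes rose with total counts and no scaling factor and 5 without HDN 7, and 8 fell without Naive 1.

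**Figure D5:**
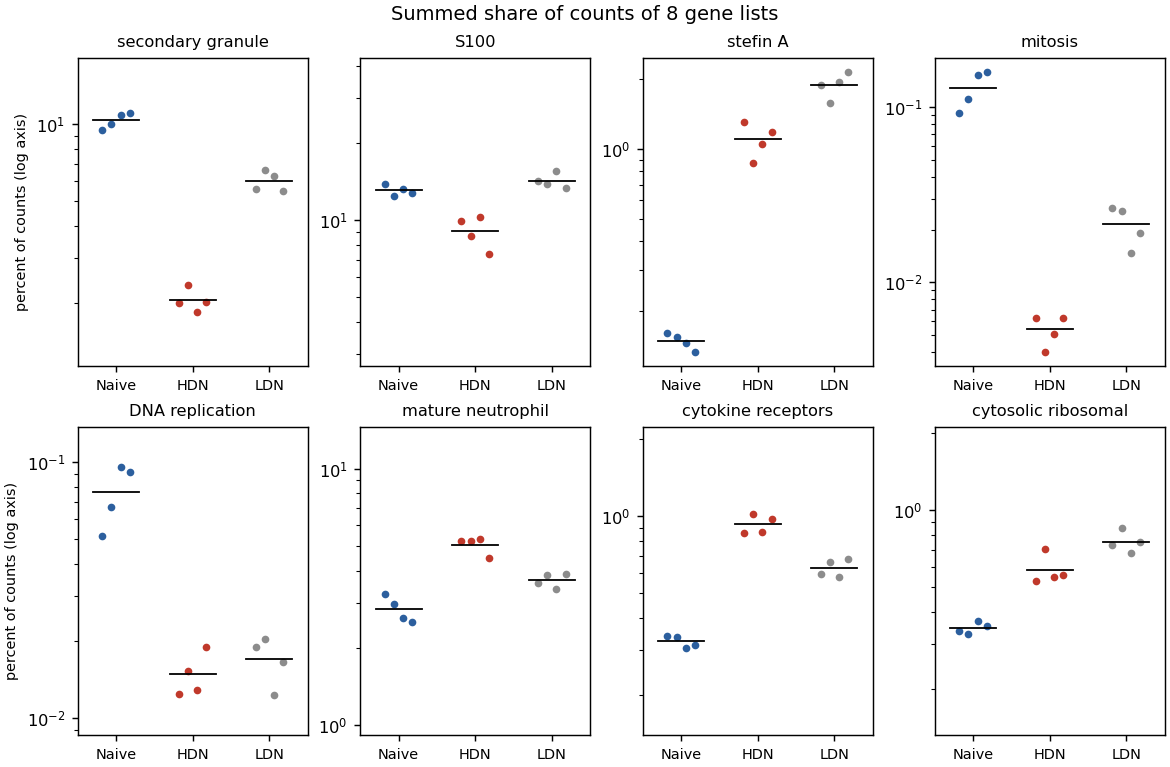
Share of all counts (percent, log axis) taken by 8 gene lists in each Naive, HDN and LDN library, as points, with the group mean as a line. Secondary granule genes took 9.526% to 11.1% in Naive and 1.849% to 2.364% in HDN, mitosis and DNA replication genes were also lower in every HDN library, and stefin A, mature neutrophil, cytokine receptor and cytosolic ribosomal genes were higher in every one.

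Of the epithelial markers, Cdh1 and Epcam rose from the floor. Cdh1, the E-cadherin gene, had 12 reads in Naive and was at 56.7, 10.9, 64.2 and 3.85 CPM in HDN 3, 4, 5 and 7 (7.96 ± 1.19, adjusted p = 5.6e-05), and Epcam had 1 read in Naive and was at 1.74, 6.20, 0.80 and 7.71 CPM. The libraries with the higher Cdh1, HDN 3 and HDN 5, had the lower Epcam. The keratin genes of the list were at or near 0 in HDN, Krt8 and Krt19 with 0 reads and Krt18 with 4, against 1, 0 and 18 reads in Naive. LDN had Cdh1 at 36.2 ± 29.9 CPM (HDN minus LDN -0.09, adjusted p = 0.928) and Epcam at 0.496 ± 0.543 CPM (3.04, adjusted p = 0.00840). In both blood fractions the summed share of the epithelial list was higher in libraries 3 and 5 than in 4 and 7. It was 0.00602%, 0.00180%, 0.00658% and 0.00148% of counts in HDN 3, 4, 5 and 7. In LDN 3, 4, 5 and 7 it was 0.00459%, 0.00120%, 0.00588% and 0.00103%. The cause was not tested.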

How the data were processed

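Poly(A) RNA of isolated neutrophils was sequenced from stranded libraries (KAPA kit), per the labels' protocols. The authors deposited a table of raw read counts per gene symbol, not normalized, and a table of their own HDN against Naive comparison, which holds per gene a mean normalized signal, a log2 fold change with its standard error, a test score, a p-value and an adjusted p-value. Only the adjusted p-values and directions of that deposited table were used. The submitters' processing notes name CASAVA 1.8.2, Trimmomatic, STAR and DESeq2 1.16.1. For the genome build, annotation and strand setting the sources used here give nothing. Without the strand setting, overlapping and antisense genes cannot be told apart.

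Counts were fitted with edgeR 4.0.16 in R 4.3.3 (TMM scaling, filterByExpr by group, robust quasi-likelihood fit over all 12 libraries with group as the term). Genes were called at an adjusted p under 0.05, and the test for more than 2-fold used glmTreat. CPM use TMM-scaled library sizes. Intervals for folds of few reads and floors of 3 reads are exact, at 95%, and cover counting error only. DESeq2 1.42.0, limma-voom (limma 3.58.1), other scalings, filters, sample sets and each replicate left out were alternatives. The fitting script was tested on simulated data. No pair of libraries agreed within sampling noise, and every sample column was matched.

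The comparison, the gene lists (70 lists, 1386 genes, of which 52 had no row and are not analysed here) and the rule for named genes were chosen with earlier results of these data known. Named were the 12 largest differences each way where the mean log2 CPM reached 4, the 8 largest gains and losses in share of counts, up to 4 or 6 called members of each list in each direction, the 6 most abundant genes with little difference, and a fixed set, of which 1 result is not reported here. Abcg1, Alox5, C1qa, Cd3e, Csf1r, Epcam, Epx, G6pdx, Hlf, Kif23, Lmnb1, Lpl, Mcm4, Pf4, Plin2, Pola1, Ppbp, Retnlg, Saa1, Spi1, Tlr2, Tlr7, Ttk, Ube2c and the members given only by reads were named after seeing their values. Promoters came from RefSeq (GRCm38.p6) by gene symbol and matched 8145 of 10604 tested genes. That build is the table's and not taken from the count table.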

Additional observations from a re-analysis of the deposited data

Results flagged for a closer look

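In a group of 4 libraries, a value was singled out when its gap to the nearest other library was a larger part of the group's whole range than Dixon's 95% critical value allows. Of 444 groups of values checked (each reported gene and several list shares, in HDN and in Naive), 26 had such a library, and chance alone gives about 1 in 20. Naive 1 was the highest Naive library for 9 of these, and HDN 7 was the lowest HDN library for 5.

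In Naive 1, S100a9 was at 78120 CPM against 66260 to 67360 CPM, Camp at 9216 against 7630 to 7763, and Ncf1 at 3493 against 2998 to 3069. The same library was highest for the developmental factor gene Cebpa, at 99.3 CPM against 59.5 to 64.1, for Sept5, at 343.5 against 304.4 to 310.1, and for Tln1, at 2889 against 2584 to 2605. Its metabolic genes Tkt, at 2144 CPM against 1797 to 1818, and Pfkl, at 27.3 against 22.97 to 23.13, were also highest, while Nfe2l2 was lowest, at 50.3 against 67.1 to 69.5. Elsewhere in Naive, Ptgs2 was at 72.5 CPM in Naive 2 against 45.8 to 48.2, and Bcl2a1b at 4.83 CPM in Naive 3 against 5.24 to 5.28.

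HDN 7 stood below the other HDN libraries for the abundant genes Gnai2, at 1750 CPM against 2517 to 2653, and Tln1, at 1818 against 2500 to 2570. It was also lowest for Rara, at 445.5 CPM against 659 to 694, for the transferrin gene Trf, at 456.5 against 802.5 to 866, and for the share of mature neutrophil markers, at 4.474% of counts against 5.213% to 5.299%. Tlr7, a receptor for single-stranded RNA, was the opposite, at 63.5 CPM in HDN 7 against 7.50 to 15.6. HDN 4 was highest for Hilpda, a lipid droplet gene, at 25.6 CPM against 4.41 to 6.64, for Oat, at 186 against 133 to 142, and for the share of cytosolic ribosomal protein genes, at 0.7091% of counts against 0.5296% to 0.5597%. It was lowest for Il6st, at 19.5 CPM against 27.1 to 28.1, and for Kif23, at 5.88 against 20.2 to 21.4.

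For 4 genes the library singled out held only 1 or 2 reads and the others of its group 0. These were Epcam in Naive 1 (0.0382 CPM), Lpl in HDN 7 (0.0381 CPM), Pf4 in HDN 5 (0.0761 CPM) and Pola1 in HDN 3 (0.0969 CPM).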

How the results depend on the processing

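No gene called at an adjusted p under 0.05 in the edgeR fit was called in the opposite direction under any alternative, and all 4 counts stayed within 1.5 times their reported value. The counts higher and lower were 3188 and 3178 with DESeq2-type size factors, 3366 and 2935 with no scaling factor, 3408 and 3742 with no filter, 2910 and 2887 with at least 1 CPM in 4 libraries, 3290 and 3236 with DESeq2, 3035 and 3231 with limma-voom, and 2949 and 3061 in a fit of the 8 HDN and Naive libraries alone. Library sizes without the 20 most abundant genes lowered the share of higher calls from 50.1% to 40.4%. Leaving out each replicate in turn gave 2847 to 3237 higher, 2951 to 3368 lower, 1003 to 1075 higher by more than 2-fold and 1481 to 1670 lower by more than 2-fold.

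HDN and Naive share the replicate numbers 3 and 4. The deviations of same-numbered libraries from their group means correlated at -0.077 and -0.109 across genes, so the numbers were not taken to pair HDN with Naive. HDN and LDN share all their numbers, 3, 4, 5 and 7. The labels do not say whether same-numbered blood libraries came from the same mouse. Every HDN minus LDN value comes from a fit without such a pairing, and its effect on them was not tested. With the replicate number as a block, 2673 genes were higher and 2980 lower, 980 and 1520 by more than 2-fold. Under the block the calls of Actb, Fos, S100a8 and Tet2 did not pass and those of Kif23, Spi1 and Tlr2 did.

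Of 210 reported genes tested, 193 kept their call and direction under every one of the 17 alternatives in which they were tested. Those that changed beside the ones above were Chil3, Hp, Mmp8 and Lmnb1 (values given with each), Tfrc, which also missed with no scaling factor (adjusted p = 0.0788), Cxcl2, which passed in the fit of 8 libraries (-0.83, adjusted p = 0.0389), Cd3e, which missed with limma-voom (adjusted p = 0.0520) and without HDN 5 (0.0542), and Itgam, Tln1 and Retnlg, which were lower with library sizes that leave out the 20 most abundant genes (-0.26, -0.34 and -0.42). The cause of these changes was not tested. Over 68 lists, 41 of 1151 counts of members called moved by more than 1.5 times. Genes near 3 reads per library have folds that depend on the prior count, and for these the reads are given.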

Other observations

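Some genes of iron handling and antioxidant defence differed widely, though their lists moved in no common direction. Of 13 iron genes, 3 rose and 6 fell. Steap4, a metalloreductase gene, was at 46.0 to 83.8 CPM in Naive and at 1904, 814, 2023 and 1060 CPM in HDN 3, 4, 5 and 7 (log2 fold change 4.61 ± 0.36 SE, adjusted p = 1.13e-07). Trf, the transferrin gene, rose from 97.6 to 124 CPM to 456.5 to 866 CPM (2.77), Slc40a1, which encodes the iron exporter ferroportin, rose by 1.46, and Tfrc, the transferrin receptor gene, fell (-1.19), with an adjusted p of 0.0523 to 0.0712 when Naive 3, Naive 4, HDN 3, HDN 4 or HDN 5 was left out. Of 24 antioxidant genes, 9 fell and 7 rose, where 29.9% and 30.0% of all genes tested did. Srxn1 (1.87), Gclm, a subunit of the enzyme that limits glutathione synthesis (1.85), and Nfe2l2, the gene of the regulator NRF2 (1.58), rose, while Mgst2 (-3.61), the cystine transporter gene Slc7a11 (-2.62) and Prdx6 (-1.76) fell.

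Amino acid genes also divided, with 10 of 18 higher and 5 lower. Oat, which links ornithine to glutamate, was at 28.1 to 33.6 CPM in Naive and 133 to 186 CPM in HDN (2.29 ± 0.15), and Glul, the glutamine synthetase gene, rose by 1.76. The mitochondrial folate genes Mthfd2 (-2.82) and Shmt2 (-2.07) fell. In the unfolded protein response, Xbp1, a factor that expands the secretory pathway, rose from 72.9 to 81.5 CPM to 234 to 374 CPM (1.88 ± 0.14) and Atf4 fell (-1.20). The heat-shock genes Hspa1a (4.10) and Hspa1b (3.19) rose from levels of 0.35 to 0.96 CPM for Hspa1a to 7.07, 8.83, 10.01 and 18.4 CPM in HDN 3, 4, 5 and 7, and as near-identical copies they may share reads. Of 28 histone genes of the HIST clusters, 18 fell and 3 rose, with a median of -1.71. With a filter of at least 1 CPM in 4 libraries, 8 of 15 fell and 3 rose, with a median of -0.95. The list's summed share overlapped, at 0.0229% to 0.0336% of counts in Naive and 0.0239% to 0.0341% in HDN. Histone counts are uncertain because of copies and of transcripts without a poly(A) tail.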
